A study of Mus musculus with 31 samples.

Results

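The genes reported here are 9 transcripts of regulatory T cells and of activated T cells: *Foxp3*, *Il2ra*, *Ikzf2*, *Ctla4*, *Icos*, *Tnfrsf4*, *Tnfrsf18*, *Tnfrsf9* and *Ccr8*. They were taken by name, as the entries of the deposited count table whose gene symbol equals a member, and are 9 of the 39179 genes counted and, after a filter on low counts, 8 of the 15919 genes tested in tumors. *Ccr8* was the member that did not pass the filter. The 9 genes were proposed with earlier results of these data known. The series followed a topical glucocorticoid (GC, clobetasol propionate) on tumors of the mouse melanoma line 20967. It asked how the treatment acts on tumors whose melanoma cells carry, or lack, the glucocorticoid receptor (GR). For the 9 genes the questions were whether their transcripts were lower under GC, whether that depended on GR in the melanoma cells, and whether *Foxp3* moved apart from the transcripts of other T cells.

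Line 20967 was derived from a melanoma of a C57BL/6 mouse with an inducible oncogenic *Nras* allele in melanocytes, and tumors were grown in the skin of wild-type C57BL/6 hosts. The melanoma cells were either parental or GR KO, in which CRISPR ribonucleoproteins had disrupted *Nr3c1*, the gene for GR. GR KO clones grown from single cells were checked for loss of the protein by Western blot, and the labels name no clone beyond the 3-22 in library names of the cultures. Cells of the host kept GR in every tumor. Each genotype had 5 tumors under control cream and 5 under clobetasol ointment at 0.05%, applied 3 times per week, from 5 mice each. Whole tumors were lysed, so immune, stromal and melanoma RNA were measured together. Cultures of the same melanoma cells, with no host cells, gave a background: 3 parental cultures in DMSO, 2 parental in clobetasol, 3 GR KO in DMSO and 3 GR KO in clobetasol. Their treatment labels give a dose of 10 µM, whereas the library names give 1 µM. RNA was sequenced from its 3′ ends. Total counts per library ran from 15528066 to 26386770 in tumors, with a median of 19693173, and from 14441166 to 22463188 in cultures.

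*Nr3c1* was read first as a check of the labels. In cultures it stood at 33.2, 30.0 and 35.6 CPM in parental cells in DMSO, and at 24.8, 21.0 and 16.4 CPM in GR KO cells in DMSO. Parental cultures in GC gave 39.5 and 33.4 CPM, and GR KO cultures in GC gave 20.9, 22.4 and 13.1 CPM. Every GR KO culture was below every parental one, but transcript remained in all of them. A tag at the 3′ end lies outside an edit further upstream, so these levels check the genotype only weakly. In control tumors *Nr3c1* averaged 54.6 ± 6.78 CPM (SD, n = 5) in the parental group and 26.9 ± 4.87 CPM in the GR KO group. Under GC the averages were 42.6 ± 11.8 CPM and 41.9 ± 14.6 CPM, and these groups overlapped.

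The response to GC gave a firmer check. In cultures *Tsc22d3*, a direct target of GR, averaged 13.5 ± 2.55 CPM in parental cells in DMSO (n = 3) and 115.0 ± 1.98 CPM in GC (n = 2). GR KO cultures gave 17.9 ± 1.82 CPM in DMSO and 17.3 ± 3.05 CPM in GC (n = 3 each). *Per1* and *Fkbp5* went the same way, with means of 5.48 and 37.5 CPM for *Per1* and 33.7 and 169.0 CPM for *Fkbp5* in parental cultures without and with GC. The GR KO cultures held 6.21 and 5.3 CPM of *Per1*, and 36.2 and 27.6 CPM of *Fkbp5*. Of 10 genes known to answer GC, a list chosen with earlier results of these data known, 9 were tested in cultures. Among all genes 0.615% were called higher under GC in parental cells. In parental cells 8 of the 9 rose by edgeR's quasi-likelihood test with Benjamini-Hochberg adjustment, and 0 of 9 did in GR KO cells, where 0 of the 9 had an unadjusted p under 0.05. The parental count was 7 without parental DMSO replicate 1, 6 without DMSO replicate 2 or 3 or GC replicate 2 and 5 without GC replicate 1, and DESeq2 gave 8. With either parental GC culture left out that group is a single sample, so the spread in those fits comes from the other groups and they say little of stability. In GR KO cells 0 genes of 12525 were called by edgeR or by DESeq2 and 237 had an unadjusted p under 0.05. The difference between those effects passed for 5 of the 9, *Tsc22d3*, *Per1*, *Sgk1*, *Mt1* and *Mt2*. That count was 7 without GR KO GC replicate 1, 4 without parental DMSO replicate 1 or parental GC replicate 1 and 3 without parental GC replicate 2. DESeq2 called 8, and 8 had an unadjusted p under 0.05. In tumors, where GC raised 0.433% of all genes in the parental and 2.71% in the GR KO group, 7 of the 10 rose in the parental group (*Tsc22d3*, *Per1*, *Sgk1*, *Mt1*, *Mt2*, *Klf9* at 1.51 and *Cebpd* at 1.66), with a median log2 change of 1.70, and 5 of 10 in the GR KO group, with a median of 1.27. The edgeR test of the difference between these effects called 1 of the 10, *Mt1* (1.90, adjusted p 0.0223), with 6 at an unadjusted p under 0.05 and 2 called by DESeq2. It called 0 without GR KO control replicate 2, GR KO GC replicate 5, parental control replicate 3 or parental GC replicate 4, and 2 without GR KO control replicate 4 or GR KO GC replicate 2. Between genotypes under GC 4 of the 10 were lower in GR KO tumors by edgeR: *Mt2* (-1.04, adjusted p 0.00339), *Mt1* (-1.35, 0.00479), *Cebpd* (-1.66, 0.00479) and *Per1* (-1.24, 0.0242), with 7 at an unadjusted p under 0.05 and 5 called by DESeq2. The call of *Per1* was lost without GR KO GC replicate 1, 2, 3 or 5 or parental GC replicate 3 or 5, and the other 3 held in 10 of 10 fits without 1 library. *Tsc22d3* averaged 71.8 and 363.0 CPM in parental tumors without and with GC, and 65.8 and 224.0 CPM in GR KO tumors. The count of genes that rose in GR KO tumors was 6 without control replicate 4 and 4 on leaving out control replicate 1 or 5, or GC replicate 1, 2, 3 or 5, each alone. It was 1 with the number of detected genes as a covariate and 4 with the level of *Gm26924*, both chosen after seeing the data, and with these the test of the difference called 0 and 2. The parental tumor count was 8 without GC replicate 2.

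Regulatory T cells are CD4 T cells that hold back other immune cells, and *Foxp3* encodes the transcription factor that sets their identity. Most of the other genes here are also carried by conventional T cells after activation, and several by natural killer cells, so no single one marks the regulatory subset. In bulk tumor RNA, fewer cells of a type and less RNA per cell cannot be told apart.

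*Foxp3* stood at 18.8, 14.5, 6.89, 16.1 and 8.98 CPM in the parental tumors under control cream, replicates 1 to 5. Parental tumors under GC gave 6.33, 9.58, 2.7, 6.84 and 3.3 CPM. Of these, 4 lay below every control tumor, and replicate 2 overlapped the lower controls. GR KO control tumors gave 7.18, 23.2, 13.9, 24.6 and 22.9 CPM, and GR KO tumors under GC gave 2.76, 9.65, 4.09, 1.32 and 1.91 CPM. Again 4 of 5 treated tumors lay below all controls, the exception being replicate 2 against control replicate 1. In raw reads the GR KO groups held 98, 388, 203, 637 and 372 counts against 62, 179, 91, 25 and 42. The floor of 3 counts, 0.114 to 0.193 CPM in these tumors, was far below that. Sequenced reads are not independent molecules, so such floors cover counting error only. Under GC *Foxp3* fell in GR KO tumors, where it decreased by 2.22 on the log2 scale (SE 0.484, adjusted p 0.0098 by edgeR's quasi-likelihood test with Benjamini-Hochberg adjustment), a 4.65-fold change. Without 1 library at a time that value ran from -2.86 to -1.999, the first without GC replicate 2 and the latter without GC replicate 4. In parental tumors the log2 fold change was -1.18 (SE 0.469, unadjusted p 0.019), and the adjusted p of 0.252 from the same edgeR fit did not pass. The difference between the 2 GC effects, parental minus GR KO, was 1.04 (SE 0.658, edgeR adjusted p 0.378), so the larger value in GR KO tumors was not shown to differ from the parental one. That difference ran from 0.78 without parental GC replicate 2 to 1.68 without GR KO GC replicate 2, where the edgeR adjusted p was 0.116.

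*Ikzf2*, for the transcription factor Helios of thymus-derived regulatory T cells, read 19.0, 17.8, 13, 29.1 and 13.7 CPM in parental controls and 11, 12.3, 10.5, 6.35 and 9.57 CPM in parental tumors under GC. All 5 treated tumors were below all 5 controls. Its log2 fold change was -0.89 (SE 0.311, unadjusted p 0.00837, edgeR adjusted p 0.192). GR KO controls gave 6.15, 9.5, 6.97, 18.9 and 14.7 CPM and GR KO tumors under GC 10.7, 12, 9.53, 6.62 and 9.81 CPM, overlapping throughout, with a log2 fold change of -0.21 (SE 0.31, edgeR adjusted p 0.715) that became 0.068 without control replicate 4. The difference between the effects was -0.68, with an edgeR adjusted p of 0.385. *Ikzf2* was not a T cell transcript alone: the cultures held 3.64 to 8.49 CPM of it.

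*Il2ra* encodes CD25, the chain that gives the receptor for interleukin 2 its high affinity. Parental control tumors held 22.0, 11.2, 13.3, 19.0 and 7.86 CPM and parental tumors under GC 8.67, 4.24, 5.48, 4.78 and 4.9 CPM. Treated replicate 1 overlapped the lowest control and the other 4 lay below every control. Its log2 fold change of -1.38 was the largest of the members in parental tumors (SE 0.339, unadjusted p 0.000438), and at an adjusted p of 0.0536 by edgeR's quasi-likelihood test with Benjamini-Hochberg adjustment it missed the threshold of 0.05. That side of the threshold turned on single libraries and on the choice of fit. The edgeR adjusted p was 0.0489 without parental control replicate 2, 0.0466 without control replicate 5 and 0.0349 without GC replicate 1, over a range of 0.0349 to 0.154 across the 10 omissions. Of 8 alternative fits 5 passed: DESeq2 with an adjusted p of 0.00526 and, in edgeR, at least 10 counts in every sample of a group with an adjusted p of 0.0483, the replicate block with 0.0418, and 2 covariates chosen after seeing the data, the number of detected genes with 0.0369 and the level of *Gm26924* with 0.0275. GR KO controls read 13.3, 10.6, 10.6, 18.1 and 4.67 CPM and GR KO tumors under GC 7.62, 8.68, 7.64, 5.24 and 6.4 CPM, a log2 fold change of -0.69 (SE 0.335, edgeR adjusted p 0.207). The effects differed by -0.70, with an edgeR adjusted p of 0.413.

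*Ctla4*, an inhibitory receptor that competes with CD28 for its ligands, was the least abundant member to be tested. Counts ran from 0 to 91 per tumor. Group means were 2.1 ± 1.41 and 1.6 ± 1.15 CPM in parental tumors without and with GC and 1.44 ± 0.861 and 1.45 ± 0.547 CPM in GR KO tumors (SD, n = 5 each). The log2 fold changes were -0.39 (SE 0.782, edgeR adjusted p 0.873) and 0.01 (SE 0.786, edgeR adjusted p 0.996), and their signs were not fixed by these data. Without 1 library at a time they ran from -0.71 to 0.067 and from -0.26 to 0.25. The sign changed without parental control replicate 2 in the first, and without GR KO control replicate 2 or 3 or GC replicate 2 or 5 in the latter. The difference between the effects was -0.40, with an edgeR adjusted p of 0.871, and 0.054 without parental control replicate 2.

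*Icos* encodes a costimulatory receptor of the CD28 family on activated and regulatory T cells. It read 75.8, 52.4, 50.6, 60.9 and 39.7 CPM in parental controls, and 36.0, 36.7, 14.4, 48.8 and 23.4 CPM in parental tumors under GC. Only GC replicate 4 reached into the controls. The log2 fold change was -0.81 (SE 0.303, unadjusted p 0.0133, edgeR adjusted p 0.222). GR KO controls gave 39.2, 42.2, 57.1, 89.7 and 59.3 CPM and GR KO tumors under GC gave 23.0, 28.7, 26.7, 10.9 and 15.9 CPM, with no overlap. There *Icos* fell by 1.45 on the log2 scale (SE 0.307, adjusted p 0.00806 by edgeR's quasi-likelihood test with Benjamini-Hochberg adjustment), or 2.73-fold. The effects differed by 0.64, with an edgeR adjusted p of 0.403.

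The other receptors belong to the tumor necrosis factor receptor family and deliver costimulation. *Tnfrsf4*, for OX40, read 62.8, 42.9, 23.9, 51.7 and 25.4 CPM in parental controls and 22.7, 46.8, 16.2, 26.6 and 17.4 CPM in parental tumors under GC. These groups overlapped, with 3 treated tumors below all controls. GR KO controls read 110.0, 83.1, 65.3, 85.4 and 54.7 CPM and GR KO tumors under GC 16.5, 22.6, 13.1, 15.4 and 14.1 CPM, far apart. There *Tnfrsf4* fell by 2.29 on the log2 scale (SE 0.307, adjusted p 0.00037 by edgeR's quasi-likelihood test with Benjamini-Hochberg adjustment), or 4.88-fold. In parental tumors its log2 fold change was -0.67 (SE 0.295, unadjusted p 0.0319, edgeR adjusted p 0.303). The difference between the effects, 1.61 (SE 0.418, unadjusted p 0.000754), had an edgeR adjusted p of 0.0836, and of 0.0325 without GR KO control replicate 4. With the replicate number as a block it was 0.0209 in edgeR, and DESeq2 gave 0.0126. Of 20 omissions of 1 library 1 passed, and the highest edgeR adjusted p was 0.169. Of 7 alternative fits 2 passed, with the highest edgeR adjusted p at 0.421.

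*Tnfrsf18*, for GITR, read 44.1, 34.9, 29.3, 41.5 and 22.5 CPM in parental controls and 22.4, 17.3, 17.8, 27.7 and 18.3 CPM in parental tumors under GC, where all but replicate 4 lay below every control. GR KO controls held 99.3, 96.5, 84.0, 84.2 and 64.6 CPM, each above every tumor of the other groups. GR KO tumors under GC held 17.3, 30.5, 16.5, 18 and 16.2 CPM. Between these groups *Tnfrsf18* fell by 2.12 on the log2 scale (SE 0.229, adjusted p 3.3e-05 by edgeR's quasi-likelihood test with Benjamini-Hochberg adjustment), or 4.35-fold. In parental tumors the value was -0.73 (SE 0.221, unadjusted p 0.00294, edgeR adjusted p 0.129). The effects differed by 1.39 (SE 0.312, unadjusted p 0.000174, edgeR adjusted p 0.0589). That adjusted p was 0.0236 without GR KO control replicate 4, 0.0193 without GR KO GC replicate 2 and 0.0473 without parental GC replicate 3. It was 0.0241 in edgeR with the replicate number as a block and 0.0492 with at least 10 counts in every sample of a group, and DESeq2 gave 0.0039. Those were 3 of 20 omissions and 3 of 7 alternative fits. The highest edgeR adjusted p was 0.146 among the omissions and 0.283 among the alternatives.

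*Tnfrsf9*, for CD137, stood at 53.8, 56.5, 62.8, 49.3 and 31.8 CPM in parental controls and 35.1, 19.3, 30.5, 31.7 and 27.4 CPM in parental tumors under GC. Treated replicate 1 overlapped control replicate 5 and the other 4 lay below all controls. Its log2 fold change was -0.82 (SE 0.283, unadjusted p 0.00796, edgeR adjusted p 0.189). In GR KO tumors it read 27.7, 21.4, 36.1, 75 and 38.5 CPM without GC and 21.4, 50.6, 34.5, 37.2 and 35.8 CPM with it, a log2 fold change of -0.15 (SE 0.282, edgeR adjusted p 0.783) that became 0.22 without control replicate 4. The effects differed by -0.67, with an edgeR adjusted p of 0.346.

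*Ccr8* encodes a chemokine receptor of regulatory T cells in tissues. It had 54 counts (3.23 CPM) in GR KO control replicate 2, 14 counts (0.689 CPM) in parental GC replicate 4, 1 count each in GR KO control replicate 4 and GR KO GC replicate 3, and 0 in the remaining tumors. No comparison was detectable at this depth.

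**Figure D1:**
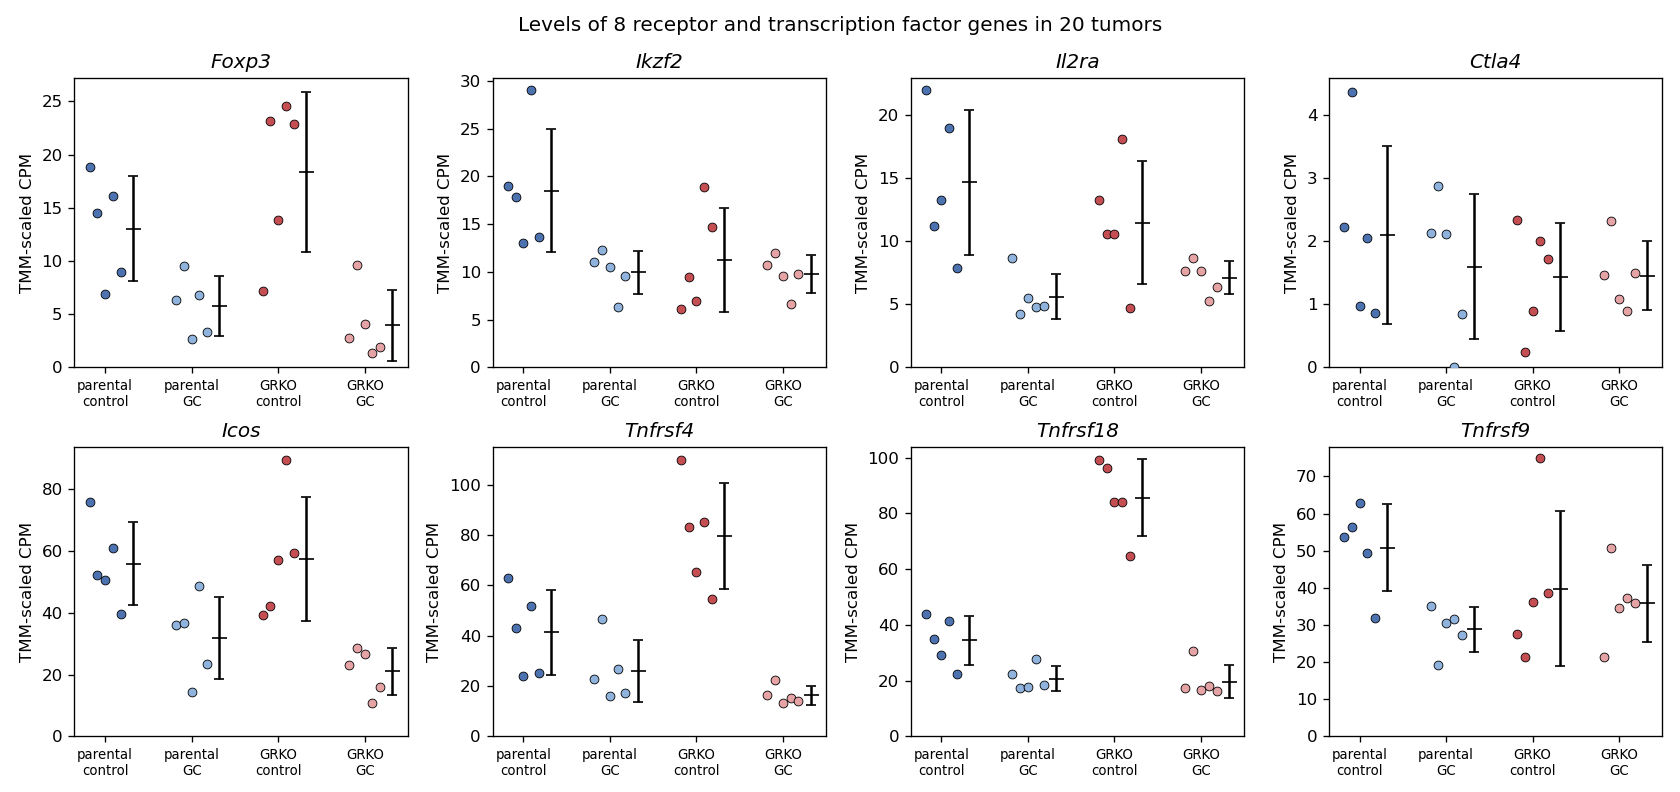
Level of each of the 8 tested members (y axes, CPM) in the 20 tumors, by group, with 1 point per tumor and the mean and SD of each group. *Tnfrsf18* is at 64.6 CPM or more in the 5 GR KO control tumors and at 30.5 CPM or less in the 5 GR KO tumors under GC.

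Counted together, 0 of the 8 tested members passed in parental tumors, where 0.779% of all genes did (124 of 15919, 0.433% higher and 0.345% lower) by edgeR's quasi-likelihood test with Benjamini-Hochberg adjustment with a fold of at least 1.5. All 8 had fitted values below 0, against 49.7% of all genes, and 7 had an unadjusted p under 0.05 with a lower level, against 7.07% of all genes that were lower and 7.05% that were higher. Members were proposed with earlier results of these data known, so such shares, here and below, describe them and are not independent evidence. The median log2 fold change of the members was -0.82 and that of all genes 0.00. DESeq2 called 376 genes, *Il2ra* among them, and no other member. Only *Ikzf2* had groups that did not overlap, a pattern that 1.71% of all genes showed in that direction. Omitting parental control replicate 2, control replicate 5 or GC replicate 1 brought the count of members to 1 in each case. The count of all genes was 60, 76 and 62 without parental control replicate 3, 4 or 5 and 73, 64 and 79 without parental GC replicate 2, 4 or 5.

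In the GR KO background 4 of the 8 passed, all lower: *Foxp3*, *Icos*, *Tnfrsf4* and *Tnfrsf18*. Fitted values were below 0 for 7 of the 8, against 47.1% of all genes. Of all genes 6.42% passed (1022 of 15919), 3.71% with a lower and 2.71% with a higher level. That share was not stable. The count of all genes was 429, 488 and 2411 without control replicate 1, 2 or 4 and 546, 303 and 393 without GC replicate 1, 3 or 5. It was 1756 with DESeq2, 391 with only the 2 groups compared and, with covariates chosen after seeing the data, 125 with the number of detected genes and 626 with the level of *Gm26924*. The median was -1.07 for the members and 0.05 for all genes. Groups did not overlap for *Icos*, *Tnfrsf4* and *Tnfrsf18*, against 2.41% of all genes in that direction. The 4 calls held in each of 10 fits that left out 1 library, where the highest adjusted p by edgeR's quasi-likelihood test was 0.0313 for *Icos*, 0.0347 for *Foxp3*, 0.00216 for *Tnfrsf4* and 0.000212 for *Tnfrsf18*. They also held in 8 of 8 alternative fits. The tests of the difference between the effects, parental minus GR KO, called 0 of 8 members and 31 genes by edgeR (0.195%, 0.126% with a positive and 0.0691% with a negative difference). At an unadjusted p under 0.05 were 2 members, both positive, against 9.87% of all genes that were positive and 10.2% that were negative. DESeq2 called 784 genes and both of those members, *Tnfrsf4* (adjusted p 0.0126) and *Tnfrsf18* (adjusted p 0.0039). The 31 genes became 1284 without GR KO control replicate 4, 73 without parental GC replicate 3 and 67 without GR KO GC replicate 2. They became 10 or fewer without GR KO control replicate 1 or 2, GR KO GC replicate 1, 3 or 5, parental control replicate 1, 3, 4 or 5 or parental GC replicate 2, 4 or 5, and 0 with the number of detected genes as a covariate. The count of members by edgeR was 2 without GR KO control replicate 4, and 1 without GR KO GC replicate 2 or without parental GC replicate 3. Samples are single tumors from separate mice, so the p-values measure spread between mice.

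**Figure D2:**
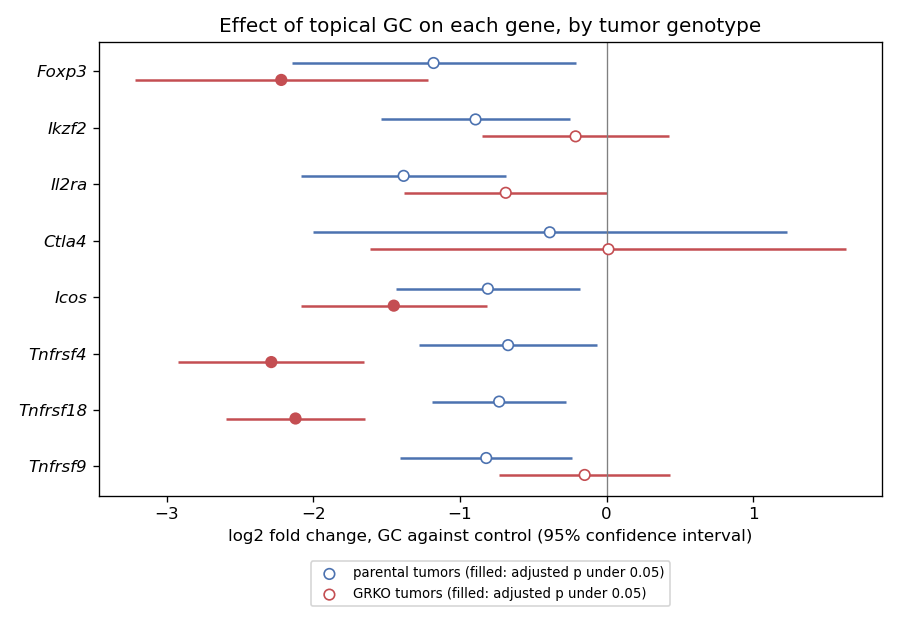
Log2 fold change under GC (x axis) of each tested member in parental and in GR KO tumors, with 95% confidence intervals and filled points for an adjusted p under 0.05. The 4 members that passed in GR KO tumors lie between -2.29 and -1.45 there and between -1.18 and -0.67 in parental tumors.

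Between genotypes under control cream, *Tnfrsf18* was higher in GR KO tumors by 1.32 on the log2 scale (SE 0.223, adjusted p 0.0041 by edgeR's quasi-likelihood test with Benjamini-Hochberg adjustment), or 2.49-fold, with all 5 tumors above all 5 parental ones. Such a separation occurred for 1.94% of all genes, and 1.26% of genes passed with a higher level. No other of the 8 passed by edgeR in this fit, and the call held in 10 of 10 fits without 1 library and in 7 of 8 alternative fits. It was lost with the number of detected genes as a covariate, chosen after seeing the data, at an edgeR adjusted p of 0.0645. DESeq2 called 1001 genes and 2 members, *Tnfrsf18* and, at an adjusted p of 0.0326, *Tnfrsf4*. With the replicate number as a block in edgeR *Tnfrsf4* passed too, at an adjusted p of 0.0245, though same-numbered tumors are not pairs. *Tnfrsf4* had a log2 fold change of 0.95 (SE 0.295, edgeR adjusted p 0.085) and *Foxp3* of 0.49 (SE 0.461, edgeR adjusted p 0.567). *Ikzf2* was at -0.72 (SE 0.31, edgeR adjusted p 0.198), and passed at 0.0421 without GR KO control replicate 4. Of all genes 2.25% (358) passed in either direction, 0.986% with a lower level. Every omission moved that count, to 70, 61, 213, 1762 and 193 without GR KO control replicates 1 to 5 and to 161, 88, 63, 73 and 201 without parental control replicates 1 to 5, each alone. This comparison uses the same control tumors as the GC effects, so a high GR KO control group enters both. Under GC, 0 of 8 members passed between genotypes by edgeR or by DESeq2, against 0.634% of all genes (101 by edgeR, 0.195% higher and 0.44% lower). The 101 became 52, 46 and 40 without GR KO GC replicate 1, 3 or 5, and 47 and 54 without parental GC replicate 2 or 4. At an unadjusted p under 0.05 was 1 member, *Tnfrsf4*, against 5.69% of all genes that were lower and 5.71% that were higher. In that comparison 49.2% of all genes had fitted values below 0. The members ran from -0.67 for *Tnfrsf4* to 0.34 for *Il2ra*, with *Tnfrsf18* at -0.07, or 0.056 without parental GC replicate 4. Groups overlapped for every member, while 2.31% of all genes lay wholly lower in GR KO tumors and 1.53% wholly higher. GR KO and parental lines also differ as clones, which cannot be told apart from the loss of GR.

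Ratios within a library put *Foxp3* beside other T cell transcripts without any scaling between libraries. They were compared by a two-sided exact permutation test of mean log2 ratios, whose smallest possible p with 5 against 5 is 0.00794, with Benjamini-Hochberg adjustment over 12 tests. *Foxp3* to *Cd8a*, for CD8 T cells, was 0.916, 0.59, 0.627, 0.707 and 0.82 in parental controls and 0.231, 0.571, 0.132, 0.37 and 0.143 under GC. All 5 treated tumors were below all controls, and the mean log2 ratio fell by 1.55 (exact permutation p 0.00794, adjusted 0.0238), or 2.93-fold. In GR KO tumors the ratio was 1.34, 2.03, 0.741, 0.526 and 1.62 without GC and 0.133, 0.412, 0.2, 0.147 and 0.268 with it, again with no overlap. It fell by 2.39 (exact permutation p 0.00794, adjusted 0.0238), or 5.24-fold. The difference between these effects was 0.84, with an exact permutation p of 0.188 and 0.283 after adjustment over 3 such tests, which were added after the data had been seen. They exchanged genotype labels within each treatment, so they test for any genotype difference in the ratio, not unequal GC effects alone. *Cd8a* itself had log2 fold changes of 0.25 and -0.25 under GC in parental and GR KO tumors. *Cd8b1*, the other CD8 gene, was at -0.50 (unadjusted p 0.183, edgeR adjusted p 0.566) and -0.91 (unadjusted p 0.0198, edgeR adjusted p 0.127), and the ratio of *Foxp3* to it was not tested.

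*Foxp3* to *Cd4* behaved otherwise. The ratio was 5.74, 5.08, 2.56, 4.47 and 5.19 in parental controls and 6.73, 6.22, 2.24, 6.2 and 3.34 under GC, a mean log2 difference of 0.03 (exact permutation p 0.944, adjusted 0.944). It was -0.17 without control replicate 3 and also below 0 without GC replicate 1, 2 or 4. In GR KO tumors it was 15.2, 51.8, 6.46, 6.28 and 15.2 without GC and 3.79, 3.18, 2.65, 1.89 and 0.794 with it, and its mean log2 value fell by 2.66 (exact permutation p 0.00794, adjusted 0.0238), or 6.32-fold. The difference between the effects was 2.69 (exact permutation p 0.00167 over 63504 divisions, adjusted 0.00501). The control groups already differed by genotype, so this p is not one for unequal GC effects alone. That test was not repeated with single libraries left out. Under control cream the ratio was 3.08-fold higher in GR KO tumors (exact permutation p 0.00794, adjusted 0.0238). *Cd4* was the scarcer partner: GR KO controls held 6, 7, 31, 101 and 24 counts of it, GR KO tumors under GC 16, 56, 34, 13 and 53, parental controls 51, 59, 52, 66 and 46, and parental tumors under GC 18, 29, 27, 22 and 17. The high ratios of GR KO control replicates 1 and 2 thus rest on few *Cd4* reads. *Cd4* is also transcribed by macrophages and dendritic cells, whose share of these reads was not tested.

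*Foxp3* to *Cd3e* gave mean log2 differences under GC of -1.03 in parental tumors (exact permutation p 0.0238, adjusted 0.0571) and -1.21 in GR KO tumors (exact permutation p 0.0714, adjusted 0.122). Without parental GC replicate 3 the first was -1.21 with an adjusted exact permutation p of 0.0381, and without GR KO control replicate 1 the latter was -1.59 with 0.0381. The difference between the effects was 0.18 (exact permutation p 0.787, adjusted 0.787). Between genotypes the *Cd3e* ratio differed by -0.26 under control cream (exact permutation p 0.69), or 0.12 without GR KO control replicate 1, and -0.44 under GC (0.333, by the same exact permutation test). The *Cd8a* ratio differed by 0.62 (exact permutation p 0.151) and -0.22 (0.706), the latter 0.086 without parental GC replicate 2, and the *Cd4* ratio under GC by -1.07 (exact permutation p 0.0635, adjusted 0.122).

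**Figure D3:**
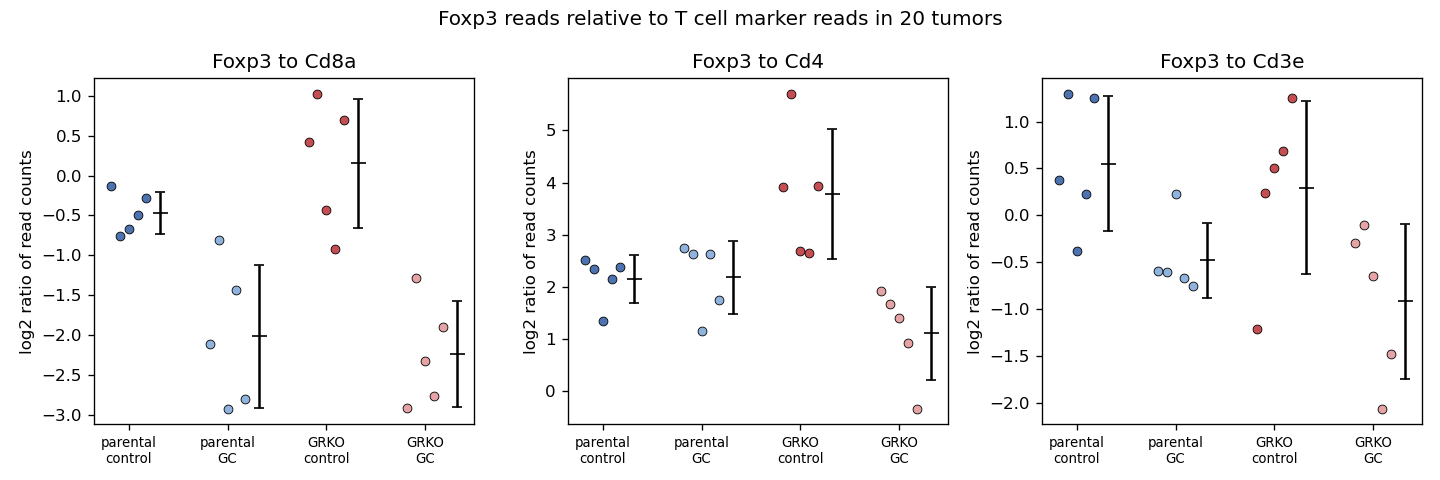
Ratio of *Foxp3* to *Cd8a*, *Cd4* and *Cd3e* counts in each of the 20 tumors on a log2 axis, with 1 point per tumor and bars for the mean and SD. Under GC the mean log2 ratio to *Cd8a* fell by 1.55 in parental tumors and dropped by 2.39 in GR KO tumors.

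Of 14 T cell markers, all tested, 0 passed in parental tumors under GC by edgeR, with a median log2 fold change of -0.45, while 4 had an unadjusted p under 0.05 and DESeq2 called 3. Of the same genes 7 fell in the GR KO background, against 3.71% of all genes by edgeR, and there the median was -1.33 and DESeq2 called 9. The edgeR test of the difference between these effects called 0 of 14, with 4 at an unadjusted p under 0.05 and 1 called by DESeq2. Between genotypes under GC 0 of 14 passed by edgeR or by DESeq2, and 0 had an unadjusted p under 0.05. The 7 that fell were, by edgeR's quasi-likelihood test with Benjamini-Hochberg adjustment, *Cd2* (-1.94, adjusted p 0.000885), *Zap70* (-1.88, 0.0055), *Cd247* (-1.73, 0.0116), *Cd6* (-1.58, 0.0182), *Lck* (-1.56, 0.0149), *Lat* (-1.40, 0.0276) and *Cd3d* (-1.26, 0.0264). The count of 7 was 4 without GR KO GC replicate 3 or 5, 5 without control replicate 2, 6 without control replicate 3 or GC replicate 1, and 7 without any of the others. It was 2 with the number of detected genes as a covariate and 8 with the level of *Gm26924*, both chosen after seeing the data, and 6 with only the 2 groups compared. In parental tumors it was 1 without GC replicate 1, 1 with the gene covariate and 2 with the level of *Gm26924*. Under control cream *Zap70* was higher in GR KO than in parental tumors (1.52, edgeR adjusted p 0.0331), and of the 10 omissions that call held only without GR KO control replicate 3, 4 or 5, and it was lost with either covariate. Under GC in parental and then GR KO tumors *Cd3e* was at -0.12 and -1.18 (edgeR adjusted p 0.0924), and *Cd4* at -1.30 and -0.01, and in parental tumors *Zap70* was at 0.02. Summed over the 14 genes, parental controls held 266.0, 225.0, 179.0, 273.0 and 135.0 CPM and parental tumors under GC 183.0, 174.0, 92.7, 195.0 and 136.0 CPM. GR KO controls held 401.0, 339.0, 267.0, 456.0 and 232.0 CPM and GR KO tumors under GC 122.0, 182.0, 129.0, 92.0 and 91.6 CPM. *Cd2* was the most abundant, at a mean of 49.7 CPM, and none of the 14 was at the floor throughout. The sums of the 9 members were 299.0, 235.0, 201.0, 270.0 and 151.0 CPM in parental controls and 144.0, 149.0, 99.7, 153.0 and 105.0 CPM under GC. GR KO tumors held 305.0, 290.0, 275.0, 398.0 and 261.0 CPM without GC and 101.0, 165.0, 113.0, 95.5 and 102.0 CPM. Whether the members fell with the number of T cells was not tested.

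Ligands and partners of the receptors were read beside them, with 3.71% of all genes called lower under GC in GR KO tumors by edgeR. Of 9 ligands 7 were tested (*Tnfsf4* and *Tnfsf9* were not, the latter at the floor in every tumor), and *Ccl8*, a ligand of CCR8, was the most abundant at a mean of 662.0 CPM. Under GC 0 of the 7 passed in parental tumors by edgeR or by DESeq2, and 0 had an unadjusted p under 0.05, with a median of 0.39. One of them, *Ccl8*, fell in GR KO tumors, with a log2 fold change of -1.13 (adjusted p 0.0205 by edgeR's quasi-likelihood test with Benjamini-Hochberg adjustment), and the median was -0.18. The number that fell was 0 without control replicate 2 or GC replicate 1, 3 or 5, and without control replicate 4 another ligand rose, making 1 higher and 1 lower. It was 0 with only the 2 groups compared or with the number of detected genes as a covariate, and 1 with DESeq2 or the level of *Gm26924*. The GC effects on *Ccl8*, parental minus GR KO, differed by 1.525 (unadjusted p 0.000804, edgeR adjusted p 0.0836). DESeq2 called 1 ligand in that test of the difference. Of 9 partner receptors 7 were tested (*Tigit* and *Lag3* were not). By edgeR 0 passed in parental tumors, where the median was -0.39, 3 had an unadjusted p under 0.05 and DESeq2 called 1. In GR KO tumors *Cd27* fell by 1.90 (edgeR adjusted p 0.0302), the median was -0.80, and 0 passed without control replicate 2 or GC replicate 1 or 3. DESeq2 called 3 of the 7 lower there, as did the fit with the level of *Gm26924*, while 0 passed with the number of detected genes as a covariate or with only the 2 groups compared. Both covariates were chosen after seeing the data.

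Among 15 further genes of regulatory T cells, 14 were tested (*Gpr83* was not). By edgeR 0.345% of all genes fell under GC in parental tumors, and 3.71% fell and 2.71% rose in GR KO tumors. In parental tumors under GC *Lrrc32*, which encodes GARP, fell by 1.48 on the log2 scale (adjusted p 0.00491 by edgeR's quasi-likelihood test with Benjamini-Hochberg adjustment), and was at -0.03 in GR KO tumors. These effects differed by -1.45 (SE 0.363, unadjusted p 0.000542), with an edgeR adjusted p of 0.082. The edgeR adjusted p was 0.0309 without GR KO control replicate 4 and 0.169 without GR KO GC replicate 5. It was 0.373 with the number of detected genes as a covariate, chosen after seeing the data. DESeq2 put the difference at -1.42, with an adjusted p of 0.0146. Under GC *Lrrc32* was higher in GR KO than in parental tumors, by 1.49 (SE 0.261, edgeR adjusted p 0.00517), a call that held in 10 of 10 fits without 1 library, while under control cream the genotypes differed by 0.05 (0.045, edgeR adjusted p 0.942). *Lrrc32* was a melanoma transcript as well. Parental cultures averaged 19.0 ± 5.11 CPM in DMSO (n = 3) and 5.38 ± 0.194 CPM in GC (n = 2), and GR KO cultures 2.51 ± 1.26 and 1.59 ± 0.318 CPM (n = 3 each). Its log2 fold change under GC was -1.82 in parental cultures (SE 0.427, edgeR adjusted p 0.0987, DESeq2 adjusted p 0.00136) and -0.66 in GR KO cultures (edgeR adjusted p 0.976). These differed by -1.16 (edgeR adjusted p 0.576). GR KO cultures in DMSO held less of it than parental ones, with a log2 fold change of -2.92 (SE 0.388, edgeR adjusted p 0.000788), a call that held in 6 of 6 fits without 1 library but not with the level of *Gm26924* as a covariate (edgeR adjusted p 0.0935). In DMSO *Gm26924* took 1.65% to 1.78% of reads in parental and 2.45% to 2.98% in GR KO cultures, so that covariate cannot be told apart from genotype. How much of the tumor signal came from melanoma cells was not tested. The median of the list was -0.47 in parental tumors, where 3 of its genes had an unadjusted p under 0.05 and DESeq2 called 2, both lower. *Cd83* was at -1.02 there (unadjusted p 0.000786, edgeR adjusted p 0.0703). Under GC *Cd83* (log2 fold change -1.95, edgeR adjusted p 0.000403) and *Entpd1* (-0.79, 0.0385) fell and *Nrp1* rose (1.10, 0.0262) in GR KO tumors, with a list median of -0.25. The edgeR test of the difference between the effects called 0 of the 14, with 4 at an unadjusted p under 0.05 and 3 called by DESeq2. The number that fell there was 3 without control replicate 4 and 1 without control replicate 1, 2 or 3 or GC replicate 1, 3, 4 or 5. The number that rose was 0 without control replicate 1, 2 or 5 or GC replicate 1, 3 or 5. With either covariate, chosen after seeing the data, 1 fell and 0 rose in GR KO tumors. *Nrp1* was the most abundant of the list, at a mean of 549.0 CPM. Cells other than T cells carry several of these genes, and their share was not tested.

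Library quality was uneven in GR KO control tumors. The share of reads on *Gm26924*, a locus of ribosomal RNA sequence, was 11.6%, 8.97%, 6.57%, 0.248% and 16.3% in GR KO controls. It was 5.55%, 1.76%, 1.24%, 1.7% and 0.439% in parental controls, 1.6%, 2.78%, 1.25%, 1.67% and 0.7% in parental tumors under GC, and 0.8%, 2.89%, 0.959%, 6.65% and 1.48% in GR KO tumors under GC. Mitochondrial transcripts took 0.587%, 0.629%, 0.755%, 1.15% and 0.976% of reads in GR KO controls and 1.25% to 2.47% in the other tumors, so replicate 4, which had the least *Gm26924*, was also low there. Genes at or above 0.5 CPM numbered 12331, 13412, 13838, 14457 and 13232 in GR KO controls and 13902 to 14513 in the other tumors. Whether this raised the levels of the members in GR KO controls was not tested. With the number of detected genes as a covariate, chosen after seeing the data, the *Tnfrsf18* log2 fold change between genotypes under control cream was 1.22 (SE 0.266, unadjusted p 0.000121, edgeR adjusted p 0.0645), in a fit that called 15 genes there. The 4 members called under GC in GR KO tumors passed with either that covariate or the level of *Gm26924*, whereas the count of T cell markers called lower there was 2 with the first and 8 with the latter.

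In the cultures *Foxp3*, *Il2ra*, *Ctla4* and *Ccr8* had 0 counts in all 11 libraries, as did *Cd3e*, *Cd4* and *Cd8a*. A count of 0 allows up to 0.134 to 0.208 CPM there. *Icos* had 0 counts but for 2 and 3 in single GR KO cultures under GC, and *Tnfrsf18* had at most 12. *Tnfrsf4* had 5 to 30 counts, or 0.345 to 1.83 CPM. *Tnfrsf9* was a melanoma transcript as well. It read 23.0, 25.8 and 23.4 CPM in parental cultures in DMSO, 8.48 and 11.3 CPM in parental cultures in GC, 6.49, 3.91 and 5.92 CPM in GR KO cultures in DMSO and 4.51, 9.4 and 6.69 CPM in GR KO cultures in GC. The parental DMSO cultures were above all others. In DMSO the GR KO cultures held less *Tnfrsf9* than the parental ones, with a log2 fold change of -2.15 (SE 0.285, adjusted p 0.0008 by edgeR's quasi-likelihood test with Benjamini-Hochberg adjustment), or 4.43-fold, and that call held in 6 of 6 fits without 1 library. The comparison was added after the data had been seen, and 8.22% of all genes passed in it (1030 of 12525, 2.18% higher and 6.04% lower). The 1030 became 647 and 594 without GR KO DMSO replicate 1 or 2, and 682 without parental DMSO replicate 1. Under GC in parental cultures *Tnfrsf9* had a log2 fold change of -1.28 (SE 0.317, unadjusted p 0.00186, edgeR adjusted p 0.124), and the 3 members tested gave 0 calls by edgeR, against 0.878% of all genes (110, 0.615% higher and 0.263% lower). The 110 became 63 and 61 without parental DMSO replicate 1 or 3, and 31 and 36 without parental GC replicate 1 or 2, where the parental GC group is a single culture. DESeq2 called *Tnfrsf9*, at an adjusted p of 0.00669, and so did edgeR with the number of detected genes as a covariate, chosen after seeing the data, at 0.00631. Both of these fits also called more of all genes than the 110 of the main fit. The covariate was 11936 to 12048 in parental and 11598 to 11756 in GR KO cultures, so it cannot be told apart from genotype. The difference of the effects in cultures, also added later, was -1.62 (SE 0.421, edgeR adjusted p 0.257, or 0.0108 with that covariate, DESeq2 adjusted p 0.0326), where edgeR called 0.295% of all genes (37), 0.224% positive and 0.0719% negative. With that covariate or with DESeq2, more of all genes than these 37 were called. The 37 became 23 without GR KO DMSO replicate 1 or 2 or parental DMSO replicate 1, 22 without GR KO GC replicate 2, and 19 and 17 without parental GC replicate 1 or 2, again with a single culture left. *Ikzf2* and *Tnfrsf4* were at 0.07 and -0.82 under GC in parental cultures, and at -0.23 and 0.63 in GR KO cultures. The sign of *Ikzf2* changed without parental DMSO replicate 3 (-0.13) or parental GC replicate 1, and without GR KO DMSO replicate 2 (0.022). How much of the *Tnfrsf9* or *Ikzf2* signal of a tumor came from melanoma cells was not tested.

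Across the 20 tumors, genes other than the members were ranked by Pearson correlation of log2(CPM + 1) with each member, as a description. The points share the treatment and genotype means and each library's T cell content, so r is also given within groups, after subtracting group means. Nearest to *Foxp3* were *Traf1* (r 0.886, 0.659 within groups), *H2-Ab1* (0.88, 0.631) and *Cd27* (0.867, 0.743). The second value is the one within groups here too: nearest to *Icos* were *Gpr132* (0.942, 0.895), *Spn* (0.889, 0.742) and *Lat* (0.867, 0.703). *Tnfrsf4* had *H2-Ab1* (0.934, 0.77), *Syngr2* (0.932, 0.729) and *H2-DMb1* (0.932, 0.733), and *Tnfrsf18* had *Cxcl16* (0.929, 0.741), *Amz1* (0.908, 0.498) and *Il1r2* (0.903, 0.473). For *Il2ra* they were *Irf4* (0.851, 0.648), *Ccr7* (0.844, 0.701) and *Klrg1* (0.838, 0.804), and for *Ikzf2* they were *Scml2* (0.797, 0.816), *Ffar2* (0.794, 0.695) and *Satb1* (0.781, 0.817). For *Tnfrsf9* they were *Cd4* (0.805, 0.73), *Cfp* (0.781, 0.667) and *Psme2b* (0.762, 0.741). The genes nearest to *Ctla4*, namely *Fabp6* (0.78, 0.834), *BC055324* (0.764, 0.782) and *1810030O07Rik* (0.761, 0.752), rest on its few counts. Among pairs of members, *Tnfrsf4* and *Tnfrsf18* had r 0.907 (0.63 within groups) and *Foxp3* and *Icos* 0.903 (0.766). *Foxp3* had r 0.83 with *Tnfrsf4* (0.523 within groups) and 0.77 with *Tnfrsf18* (0.451). *Tnfrsf9* with *Tnfrsf4* gave 0.143 (-0.066 within groups) and *Foxp3* with *Ctla4* 0.157 (0.195).

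Positions are from GENCODE M21 on GRCm38. *Foxp3* (ENSMUSG00000039521) lies at chrX:7573644-7595245 on the plus strand, where *Ppp1r3f*, *Ccdc22*, *Gm36995* and *Flicr* overlap it. *Il2ra* (ENSMUSG00000026770) is at chr2:11642807-11693193, overlapped by *Gm37881*, and *Ikzf2* (ENSMUSG00000025997) at chr1:69531214-69687245 on the minus strand, overlapped by *Gm29114*, *Gm29112* and *Gm28112*. *Ctla4* (ENSMUSG00000026011) at chr1:60887000-60915832 and *Icos* (ENSMUSG00000026009) at chr1:60977927-61000320 are neighbors, with 62094 bases and 1 gene between them, and are overlapped by *Rpl18-ps1* and *Gm37039*. *Tnfrsf4* (ENSMUSG00000029075) at chr4:156013843-156016612 and *Tnfrsf18* (ENSMUSG00000041954) at chr4:156026164-156028895 are 9551 bases apart, with 2 genes between them. No gene overlaps *Tnfrsf4*, and *Gm16008* runs antisense to *Tnfrsf18*. *Tnfrsf9* (ENSMUSG00000028965) is at chr4:150914562-150946102, overlapped by *Camta1* on the other strand, and *Ccr8* (ENSMUSG00000042262) at chr9:120092114-120094906 has no overlapping gene. The strand setting of the counting step is not given in the sources used here, and if it ignored strand, reads of a member and of a gene across from it cannot be told apart.

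Windows of 250 bases upstream of annotated transcript starts (RefSeq, GRCm38.p6) were searched on both strands for short motifs. Entries were matched for 7 of the 9 members, giving 9 windows, and not for *Ikzf2* and *Icos*. A full form of the GR motif, AGAACA and TGTTCT spaced by 3 bases, was in none of the 9 and in 0.00913% of 32851 windows of all genes. Its shorter arm AGAACA, which lies within the full motif, was in the window of *Il2ra*, 16 bases before the start (position -16), and in 16.1% of all windows. The core motif of NFAT, GGAAA, was in 8 of the 9, all but that of *Ccr8*, and in 55.6% of all windows. The AP-1 motif TGANTCA was in 1 window, at a start of *Tnfrsf9*, and in 6.75% of all windows. A narrow form of the NF-kB motif, GGGA and TTTCC spaced by 1 base, which can overlap GGAAA on the other strand, and the forkhead motif GTAAACA were in none, and in 0.356% and 3.17% of all windows. A wide form of the NF-kB motif, the kB consensus of 10 bases, was added after the windows had been seen, and can overlap both the narrow form and GGAAA. It was in 2 of the 9, those of *Il2ra* and of a start of *Tnfrsf9*, and in 7.25% of all windows. A match describes letters only and says nothing of binding. The windows of *Il2ra* (chr2:11642542-11642791), *Tnfrsf4* (chr4:156013445-156013694) and *Tnfrsf18* (chr4:156026072-156026321), all on the plus strand, are printed with matches in capitals.
Il2ra: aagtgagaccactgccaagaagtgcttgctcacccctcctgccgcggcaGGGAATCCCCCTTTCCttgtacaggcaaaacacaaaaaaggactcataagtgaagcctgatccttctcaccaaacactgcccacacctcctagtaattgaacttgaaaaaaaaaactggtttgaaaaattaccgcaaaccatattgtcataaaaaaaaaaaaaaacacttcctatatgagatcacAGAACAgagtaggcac
Tnfrsf4: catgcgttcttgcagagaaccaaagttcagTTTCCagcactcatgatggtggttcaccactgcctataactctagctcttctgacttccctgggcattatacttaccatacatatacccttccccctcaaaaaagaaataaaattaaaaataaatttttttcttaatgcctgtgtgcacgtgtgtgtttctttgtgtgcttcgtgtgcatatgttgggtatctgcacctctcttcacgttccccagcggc
Tnfrsf18: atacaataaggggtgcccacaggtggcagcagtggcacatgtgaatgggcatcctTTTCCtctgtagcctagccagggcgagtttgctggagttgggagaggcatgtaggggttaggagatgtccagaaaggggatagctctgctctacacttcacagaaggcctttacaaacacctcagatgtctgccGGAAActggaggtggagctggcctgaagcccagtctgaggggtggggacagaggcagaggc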

How the data were processed

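RNA of 20 whole tumors and 11 melanoma cultures was measured by 3′ RNA sequencing (QuantSeq). The authors trimmed reads with Trim Galore 0.6.5, aligned them to GRCm38 with STAR 2.6.1d and counted them per gene with featureCounts on Ensembl release 75, and the deposited values are those integer counts, with no normalization. The strand setting of featureCounts is not given in the sources used here. The table pairs identifiers with symbols, and 37607 of its 39179 identifiers are in GENCODE M21, used for positions.

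Groups were taken from the labels. Tumors and cultures were fitted apart, each with genes at 0.5 CPM or more in 3 or more of its libraries. The fit took TMM factors and the 4 groups, in edgeR 4.0.16 (R 4.3.3, limma 3.58.1), and its quasi-likelihood F test was used, with Benjamini-Hochberg adjustment over all genes tested. Called genes have an adjusted p under 0.05 together with a fold of 1.5 or more, up or down. Standard errors come from the F statistic. CPM are TMM-scaled, and means carry the SD. A gene with 3 counts or fewer is at the floor. Within an experiment the comparisons share groups: each GC effect and the genotype comparison under control use the same control samples, so their results are not independent. Ratios are log2 of (*Foxp3* count + 0.5) over (other count + 0.5), compared by exact permutation tests in SciPy 1.17.1. Tables and plots used Python 3.11.15, pandas 2.3.3, numpy 2.4.6 and matplotlib 3.10.9. The fit was tested on simulated data.

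The genes named are the 9 members, the genes of 16 lists (135 entries, the members included) that passed a test or were most abundant, a few others of these lists (not tested, at the floor, used in a ratio or set beside such a gene), *Nr3c1*, *Tsc22d3*, *Fkbp5* and *Per1*, and the 3 genes, other than members, nearest to each tested member by correlation. The other lists are ligands, partner receptors, further regulatory T cell genes, GC-responsive genes and markers of T, NK, B, naive, innate lymphoid and mast, dendritic, macrophage, keratinocyte, muscle, endothelial and melanocyte cells. Members and lists were chosen with earlier results of these data known. *Gm26924* was chosen after its values were seen.

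Alternatives to the fit were DESeq2 1.42.0, DESeq2's size factors, no filter, at least 10 counts in every sample of a group, a minimum fold of 2 or none, the replicate number as a block, only the 2 groups compared, another pseudocount (0.1 or 1) in the ratios, and leaving out each library in turn. Chosen after seeing the data were 2 covariates (the number of genes at or above 0.5 CPM, and the level of *Gm26924*), the genotype and difference contrasts in cultures, and the 3 tests of a difference between ratio effects.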

Additional observations from a re-analysis of the deposited data

Results flagged for a closer look

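In 47 sets of 5 values, each a gene or ratio within a tumor group, 6 had a sample far from the rest by Dixon's criterion at 95%, and chance gives about 1 in 20. *Il2ra* stood at 8.67 CPM in parental GC replicate 1, where the next highest treated tumor had 5.48 CPM, and the member missed the threshold in parental tumors with that library and passed without it. *Tnfrsf18* stood at 30.5 CPM in GR KO GC replicate 2, where the next had 18 CPM. The log2 ratio of *Foxp3* to *Cd3e* was 0.228 in parental GC replicate 3 and at most -0.598 in the other tumors of that group. *Ccr8* stood at 3.23 CPM in GR KO control replicate 2 (next 0.0386), at 0.689 CPM in parental GC replicate 4 (next 0.0) and at 0.0449 CPM, or 1 count, in GR KO GC replicate 3 (next 0.0). Nearly all other *Ccr8* values are 0, so there the gap is close to the whole range by construction, and those 3 sets do not bear on the comparison with chance. The causes were not tested.

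The effects of GC on the ratio of *Foxp3* to *Cd4* in the 2 genotypes were 2.69 apart on the log2 scale (2.693, exact permutation p 0.00167, adjusted 0.00501 over 3 tests). That test exchanged genotype labels within each treatment, and under control cream the ratio was already 3.08-fold higher in GR KO tumors. Its p is therefore not one for unequal GC effects alone, and no library was left out of it. The parental effect was 0.03 and the GR KO effect -2.66. GR KO control replicates 1 and 2 held 6 and 7 counts of *Cd4* in libraries with 11.6% and 8.97% of reads on *Gm26924*. The tests of a difference for the genes themselves did not pass, at an edgeR adjusted p of 0.378 for *Foxp3* and 0.403 for *Cd4*. The cause was not tested.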

How the results depend on the processing

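Of the values of single genes, 917 kept their direction and their side of the threshold under an alternative, 24 moved past it, 1 moved short of it and 27 changed sign, and of counts and ratios 324 stayed, 105 moved, 6 changed sign, 2 moved past the threshold and 4 short of it. Comparisons are named here as GC in parental, GC in GR KO, genotype under control, genotype under GC, and difference of the GC effects. A fold of at least 2 gave 583 genes for GC in GR KO and 238 for genotype under control. DESeq2 gave 376, 1756, 1001, 293 and 784 genes in that order, with members 1 for GC in parental, 2 for genotype under control and 2 for the difference, and in cultures 251 genes for GC in parental and 128 for the difference. Without a filter the difference gave 49 genes in tumors and 64 in cultures. With at least 10 counts, members were 1 for GC in parental and 1 for the difference. Replicate numbers did not pair the samples: same-numbered tumors of different groups had a mean r of 0.0583 over 30 pairs, 16 of them over 0.1, and cultures 0.0198 over 15 pairs. With the replicate block, members were 1 for GC in parental, 2 for genotype under control and 2 for the difference, and genes were 160 for genotype under GC, 144 for the difference and 63 for GC in parental cultures. Sign flips of same-numbered tumors left the ratio effects of -1.55, -2.39, -2.66 and 1.62 (1.625) at an adjusted exact p of 0.188, since the smallest p of that test is 0.0625. With only the 2 groups compared, genes were 391 for GC in GR KO, 159 for genotype under control and 59 for GC in parental cultures. With the number of detected genes as a covariate, chosen after seeing the data, genes were 213, 125, 15, 201 and 0, with 1 member for GC in parental and 0 for genotype under control, and in cultures 1783 for GC in parental, 4901 for genotype in DMSO and 1759 for the difference. That number was 11936 to 12048 in parental and 11598 to 11756 in GR KO cultures, so it cannot be told apart from genotype there. With the level of *Gm26924*, also chosen later, genes were 329, 626, 69 and 225 in the first 4 comparisons, with 1 member for GC in parental, and 73, 155 and 24 in cultures. Its share of reads was 1.65% to 2.25% in parental and 2.27% to 4.14% in GR KO cultures, so it followed genotype there as well. The causes were not tested. Leaving out 1 library at a time gave 60 to 178, 303 to 2411, 61 to 1762, 40 to 114 and 0 to 1284 genes in tumors, and members of 0 to 1 for GC in parental, 1 to 2 for genotype under control and 0 to 2 for the difference. The highest counts of 2411, 1762 and 1284 came without GR KO control replicate 4. In cultures the ranges were 61 to 78 for GC in parental, 594 to 916 for genotype in DMSO and 22 to 43 for the difference, and omitting parental GC replicate 1 or 2, which leaves a group of 1 sample, gave 31 and 36 for the first and 19 and 17 for the last. *Ctla4* for GC in GR KO became -0.02 (-0.024 and -0.025) with DESeq2's size factors and DESeq2, -0.001 with at least 10 counts and -0.157 with the block. *Tnfrsf9* for genotype under control became 0.09 (0.092) with the gene covariate, and *Ikzf2* for GC in parental cultures -0.05 with the block. Effects whose sign changed without 1 library were *Ctla4* for GC in parental (-0.71 to 0.067), GC in GR KO (-0.26 to 0.25), genotype under GC (-0.46 to 0.18) and the difference (-0.72 to 0.054), *Ikzf2* for GC in GR KO (-0.37 to 0.068), genotype under GC (-0.16 to 0.077), GC in parental cultures (-0.13 to 0.24) and GC in GR KO cultures (-0.46 to 0.022), *Tnfrsf9* for GC in GR KO (-0.31 to 0.22), *Icos* for genotype under control (-0.18 to 0.18), *Tnfrsf18* for genotype under GC (-0.28 to 0.056) and *Tnfrsf4* for genotype in DMSO (-0.22 to 0.37). Ratios that did so were *Cd8a* for genotype under GC (-0.46 to 0.086), *Cd4* for GC in parental (-0.17 to 0.29) and *Cd3e* for genotype under control (-0.50 to 0.12). The other ratio ranges were, in the order of the first 4 comparisons where given, *Cd8a* -1.85 to -1.32, -2.66 to -2.17 and 0.41 to 0.90 (the first 3), *Cd4* -2.94 to -2.18, 1.15 to 1.91 and -1.32 to -0.71 (the last 3), and *Cd3e* -1.27 to -0.85, -1.59 to -0.93 and -0.64 to -0.15 (all but genotype under control). Depth limits *Ctla4* and *Ccr8* most, and *Cd4* at 6 and 7 counts in 2 tumors.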

Other observations

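Other marker lists were read in tumors as a description of the samples, by edgeR with Benjamini-Hochberg adjustment, with counts of genes called for GC in parental and then in GR KO tumors. Of all genes 0.779% were called in the first and 6.42% in the latter, there 2.71% higher and 3.71% lower. Single calls in a short list are to be read beside these shares. In parental tumors 0 genes of these lists passed by edgeR. At an unadjusted p under 0.05 there were 2 NK and cytotoxic, 0 B cell, 2 naive, 3 innate lymphoid and mast, 1 dendritic, 2 macrophage, 2 keratinocyte, 1 muscle, 3 endothelial and 1 melanocyte markers. DESeq2 called 1 naive, 1 innate lymphoid and mast and 1 endothelial marker there. A list's sum is over its genes, in CPM, replicates 1 to 5.

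Of 11 NK and cytotoxic markers 1 fell in GR KO tumors, *Tbx21* (-1.32, adjusted p 0.0499 by edgeR), with medians of -0.60 and -1.01. That call was lost without control replicate 1, 2, 3 or 5 or GC replicate 1, 3, 4 or 5, with only the 2 groups compared, and with either the number of detected genes or the level of *Gm26924* as a covariate, both chosen after seeing the data. *Gzmc* was the most abundant, at 169.0 CPM. Sums were 249.0, 181.0, 156.0, 222.0 and 108.0 in parental controls, 113.0, 154.0, 75, 231.0 and 89.9 under GC, 295.0, 540.0, 301.0, 456.0 and 345.0 in GR KO controls and 219.0, 251.0, 264.0, 93.5 and 177.0 under GC. DESeq2 called 0 and 4 of the 11 under GC.

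Of 7 dendritic cell markers 6 were tested, with medians of -0.93 and -1.13, and *Itgax* (-1.80, edgeR adjusted p 0.00116) and *Zbtb46* (-0.99, 0.047) fell in GR KO tumors. The number was 1 without control replicate 1 or 2 or GC replicate 1, 2, 3, 4 or 5. *Fscn1* was the most abundant, at 999.0 CPM. The 4 group means of the summed CPM, in the order parental control, parental GC, GR KO control and GR KO GC, were 1310.0, 802.0, 1280.0 and 995.0. Of 8 macrophage and monocyte markers 1 rose in GR KO tumors, *Mrc1* (1.20, edgeR adjusted p 0.0267), with medians of -0.11 and -0.24. It was lost without control replicate 1, 2 or 3 or GC replicate 1, 3 or 5, and 1 fell without control replicate 3. *Csf1r* led at 459.0 CPM, and group means in that order were 868.0, 1020.0, 936.0 and 873.0.

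Of 8 B cell markers 3 were tested, and *Jchain* rose in GR KO tumors (7.08, SE 1.687, edgeR adjusted p 0.0194), with medians of -0.10 and -1.13. *Cd79b* held 80.7% of the list's sum, so *Jchain* was scarce and the size of its change is not exact. *Cd79a* and *Pax5* were at the floor in all tumors, *Cd79b* led at 6.55 CPM, and group means of the sums were 8.14, 7.96, 10.7 and 5.66. Without GC replicate 2 or 4, 1 B cell marker also fell. Of 7 naive lymphocyte and lymph node markers 5 were tested, and *Cxcl13* rose in GR KO tumors (1.90, edgeR adjusted p 0.0343), with medians of -1.02 and 0.29. It was lost without control replicate 1, 2 or 5 or GC replicate 1, 2, 3 or 5, and in parental tumors 1 marker fell without GC replicate 1. *Ccl21a* and *Ccl19* were at the floor in all tumors, *Cxcl13* led at 6.35 CPM, and group means were 23.8, 17.2, 22.4 and 25.4. Of 10 innate lymphoid and mast cell markers *Gata3* fell (-1.06, edgeR adjusted p 0.0302) and *Areg* rose (2.07, 0.0334) in GR KO tumors, with medians of 0.44 and 0.12. Both were lost without control replicate 1 or 2 or GC replicate 3 or 5, the rise without control replicate 3 or GC replicate 2, and the fall without GC replicate 1. In parental tumors 1 rose without GC replicate 1 or 3. *Tpsb2* led at 72.5 CPM, and group means were 236.0, 359.0, 181.0 and 174.0.

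Of 5 keratinocyte markers *Krt1* (1.85, edgeR adjusted p 0.00234) and *Krt10* (2.13, 0.0136) rose and *Krt14* (-1.42, 0.0302) fell in GR KO tumors, with medians of -0.12 and -0.15. The fall was lost without control replicate 1, 2 or 3 or GC replicate 1, 2, 3 or 5, and without GC replicate 5 only 1 rose. *Krt14* led at 1210.0 CPM. Sums were 891.0, 789.0, 1260.0, 801.0 and 2800.0 in parental controls, 992.0, 1020.0, 906.0, 1200.0 and 969.0 under GC, 2880.0, 3620.0, 2930.0, 1290.0 and 1770.0 in GR KO controls and 700.0, 880.0, 1320.0, 1520.0 and 1360.0 under GC. Of 4 muscle markers *Myh4* fell in GR KO tumors (-1.33, edgeR adjusted p 0.0268; lost without control replicate 1 or GC replicate 3 or 5), with medians of 0.42 and -0.72. *Acta1* led at 259.0 CPM, and group means were 342.0, 330.0, 422.0 and 272.0. Of 4 endothelial markers *Kdr* fell in GR KO tumors (-1.32, edgeR adjusted p 0.00567), with medians of -0.91 and -0.82, and 1 fell in parental tumors without control replicate 3. *Kdr* led at 28.5 CPM, and group means were 56.1, 30.7, 95.2 and 48.6. Of 5 melanocyte markers 4 were tested and 0 passed in either genotype by edgeR or DESeq2, with medians of -1.78 and 0.03. *Tyr* was at the floor in all tumors, *Mitf* led at 33.5 CPM, and group means were 40.7, 44.4, 31.7 and 37.4. How far the makeup of the tumors set the levels of the 9 members was not tested.

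Between genotypes under control cream, other genes of the lists that passed by edgeR were, with log2 fold changes and adjusted p, *Zap70* (1.52, 0.0331), *Ncr1* (1.71, 0.0376), *Itgax* (1.12, 0.0342) and *Kdr* (0.98, 0.0472), higher in GR KO tumors, and *Krt1* (-1.21, 0.0422), *Nrp1* (-1.23, 0.0296) and *Fkbp5* (-1.50, 0.0296), lower. All 7 were lost with either the number of detected genes or the level of *Gm26924* as a covariate, chosen after seeing the data, and most omissions of 1 library lost them. Calls held only without GR KO control replicate 3, 4 or 5 for *Zap70*, those or parental control replicate 2 for *Itgax*, GR KO control replicate 4 for *Ncr1* and *Kdr*, that or parental control replicate 5 for *Krt1*, GR KO control replicate 3 or 4 for *Fkbp5*, and those or parental control replicate 1 or 2 for *Nrp1*. By edgeR the highest adjusted p ran from 0.0825 for *Nrp1* to 0.133 for *Kdr*.

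Under GC, 2 innate lymphoid and mast cell markers were lower in GR KO than in parental tumors by edgeR, *Mcpt4* (-1.38, adjusted p 0.00517), in 10 of 10 fits without 1 library, and *Tpsb2* (-1.29, 0.0194), lost without GR KO GC replicate 1, 3 or 5 or parental GC replicate 2 or 4. Between genotypes in DMSO, a comparison added after the data had been seen, edgeR called *Mitf* (-1.36, adjusted p 0.0038), *Il1rl1* (-2.06, 0.0347), *Gata3* (-1.65, 0.0457) and *Cebpd* (-0.95, 0.0126) lower and *Mt2* (0.74, 0.00989) higher in GR KO cultures. *Mitf* and *Mt2* held in 6 of 6 fits without 1 library, *Il1rl1* only without parental DMSO replicate 3, *Gata3* in 0 of 6, and *Cebpd* in all but those without GR KO DMSO replicate 1 or 3. None of the 5 passed with the level of *Gm26924* as a covariate, chosen after seeing the data. With the number of detected genes, also chosen later, *Il1rl1*, *Gata3* and *Cebpd* did not pass. In DMSO *Gm26924* took 1.65% to 1.78% of reads in parental and 2.45% to 2.98% in GR KO cultures. Detected genes numbered 11936 to 12048 and 11693 to 11748. Both covariates thus cannot be told apart from genotype here, and a call lost with them says little of stability. Across 10 other settings of the fit *Cebpd* ran from -0.953 to -0.019.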
